A study of Mus musculus with 10 samples.

Results

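The OVE918 line is a transgenic mouse line whose lenses secrete a constitutively active human TGF-β1. Its lens epithelium was compared here with that of wild-type (WT) mice in 7 of the 10 libraries of the series, 4 from OVE918 and 3 from WT, chosen by their labelled genotype. The test covered every gene expressed above a minimum, 11097 out of 50763 listed. The 3 further libraries came from OVE853, a second line with the same kind of transgene, and entered the fit and the comparison of the lines at the end. All mice were 3 weeks old, inbred and homozygous on the FVB/N background, taken from different litters with males and females in equal numbers. Each OVE918 sample was a pool of up to 14 explants from 7 mice that had formed an anterior subcapsular plaque, and each WT sample was a pool from up to 9 mice without the transgene. The transgene is driven by the murine αA-crystallin promoter, which is active in the lens, and OVE918 is 1 transgenic family. The whole epithelial explant was sequenced and not the plaque alone, and a replicate is a pool and not an animal.

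TGF-β1 is secreted in a latent form, and once active it binds paired serine/threonine kinase receptors that phosphorylate SMAD transcription factors. In the lens, the signal is known for turning the single layer of anterior epithelial cells into fibroblast-like and contractile cells that deposit a collagenous plaque beneath the capsule. The epithelium normally pumps ions and solutes, secretes the capsule and gives rise to the fiber cells.

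Total counts on genes were between 24073311 and 28645174 in WT and between 25342220 and 28562553 in OVE918. Levels are CPM, the counts scaled to a common library size, after TMM scaling, whose factors lay between 0.880 and 1.05 in these 7 libraries. The label of lens epithelium was checked against its markers. All 10 listed lens epithelial markers were tested, among them Pax6, a transcription factor of the lens lineage, with 463, 455 and 430.0 CPM in WT and 376, 402, 395 and 356 CPM in OVE918. Markers of other ocular cells were also present, and WT replicate 3 stood apart in them. The summed level of 14 retinal neuron markers was 91.1, 114 and 972 CPM in WT and 152, 26.7, 42.1 and 48.7 CPM in OVE918. That of 11 cornea and conjunctiva markers was 248, 956 and 1637 CPM in WT and between 49.99 and 108 CPM in OVE918, of which 3 markers were at 0 in every OVE918 library. In bulk RNA, fewer cells of a type and less RNA per cell cannot be told apart. For the gene lists described below, counts that changed without WT replicate 3 or, because of its spread, without OVE918 replicate 4 are also given.

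Tgfb1 (chr7:25386390-25404506, GRCm39), the gene whose human form was introduced, stood at 50.6, 61.7 and 50.7 CPM in the WT libraries and at 881, 715, 717 and 788 CPM in the OVE918 libraries, in the order of replicate number. Every OVE918 library was far above every WT library. The log2 fold change was 3.83 with a standard error (SE) of 0.13, a level 14.3-fold that of WT. The false discovery rate (FDR), which is the p-value of edgeR's quasi-likelihood test after Benjamini-Hochberg adjustment over all genes tested, was 1.03e-07. Reads were aligned to the mouse genome, and how many of these came from the human transgene cannot be told apart from the counts. Cryaa, the crystallin gene whose promoter drives the transgene, was the most abundant gene at 116599, 114482 and 118693 CPM in WT and 151319, 98441, 118205 and 140509 CPM in OVE918, and the groups overlapped (log2 fold change 0.12, SE 0.16, FDR 0.636).

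Genes were called differentially expressed (DEGs) at an FDR of 0.05 or less together with a change of 2-fold or more. Among 11097 tested genes there were 621 DEGs (5.6%), 286 elevated (2.58%) and 335 reduced (3.02%) in OVE918. No library of one group overlapped the other in 280 of the elevated and 326 of the reduced DEGs, against 12.3% and 14.9% of all genes tested in those directions. Both sets changed by a like median amount, 1.60 log2 units for the elevated and 1.54 for the reduced DEGs. The elevated set held more of the extreme changes, with 45 genes over 8-fold against 17 in the reduced set. The sets differed in how abundant the genes were in WT. The median WT level was 6.85 CPM for elevated DEGs and 43.3 CPM for reduced DEGs, beside 28.7 CPM for all genes tested. In OVE918 the medians were 24.4 CPM for elevated and 12.9 CPM for reduced DEGs. The expression minimum bears on the extreme changes and on these levels. Genes present in WT alone could not meet it, while genes present in both transgenic lines alone could. Together the reduced DEGs made up 2.77%, 2.62% and 3.69% of scaled counts in the WT libraries and 0.947%, 0.807%, 0.901% and 0.819% in the OVE918 libraries. The elevated DEGs made up 0.841%, 0.742% and 0.636% in WT and 2.20%, 2.25%, 2.33% and 2.35% in OVE918. With the FDR alone and no minimum fold change, 888 genes (8%) were elevated and 1222 (11%) reduced.

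**Figure D1:**
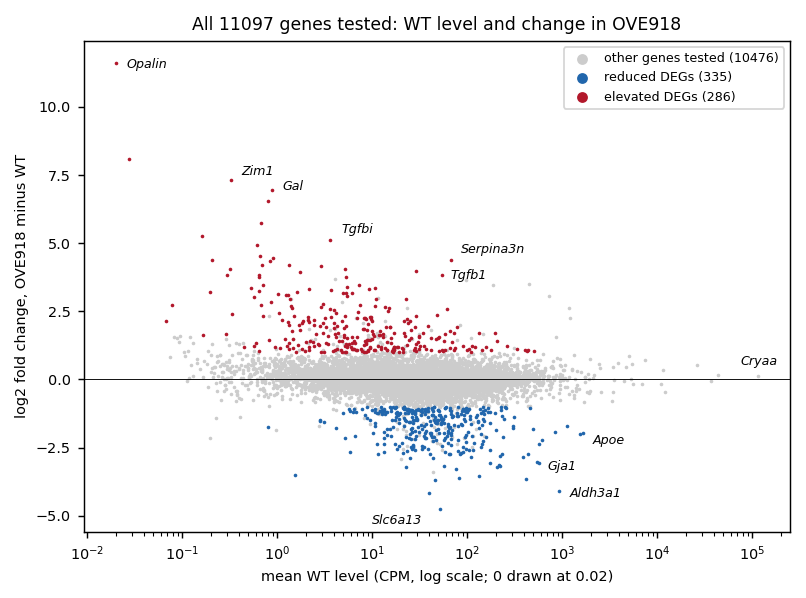
Each point is 1 of the 11097 genes tested, with its mean WT level in CPM on a log x axis and its log2 fold change (OVE918 minus WT) on the y axis, and DEGs are coloured by direction. The 286 elevated DEGs reach far down the range of WT levels, to Opalin at 0 CPM, while the 335 reduced DEGs lie mostly above 10 CPM. Genes present in WT alone could not meet the expression minimum and are not drawn.

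The largest rises were of genes close to absent from the WT epithelium. Gal (chr19:3459912-3464881), which encodes the neuropeptide galanin, was at 0.402, 0.923 and 1.33 CPM in WT and at 89.5, 90.03, 111 and 163 CPM in OVE918. The lowest OVE918 library lay far above the highest WT library, with a log2 fold change of 6.95 (SE 0.48, FDR 1.21e-05). Spp1, which encodes osteopontin, a secreted phosphoprotein of bone and wounds, was at 0.805, 0.192 and 1.44 CPM in WT and at 32.04, 33.3, 85.95 and 162 CPM in OVE918. Its OVE918 libraries were themselves spread widely, replicate 4 being the highest, and the log2 fold change was 6.56 (SE 0.89, FDR 0.00119). Opalin, known as a membrane protein of oligodendrocytes, had 0 counts in all 3 WT libraries and 10.5, 11.7, 14.05 and 22.8 CPM in OVE918. Against a floor of 3 counts per WT library (0.117 CPM) this was at least 126-fold higher (FDR 6.64e-05). Also among the 10 largest, taken from DEGs whose libraries did not overlap and whose higher group averaged at least 5 CPM, were Zim1, Prss56, Kng2, Tgfbi, Bcl3 and Gm40376, with log2 fold changes from 4.54 to 7.30. Prss56, a serine protease gene of the eye, was at 88.2, 19.7, 14.98 and 21.5 CPM in OVE918, so that replicate 1 alone carried most of its mean, and its FDR of 0.0422 became 0.144 without WT replicate 3.

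**Figure D2:**
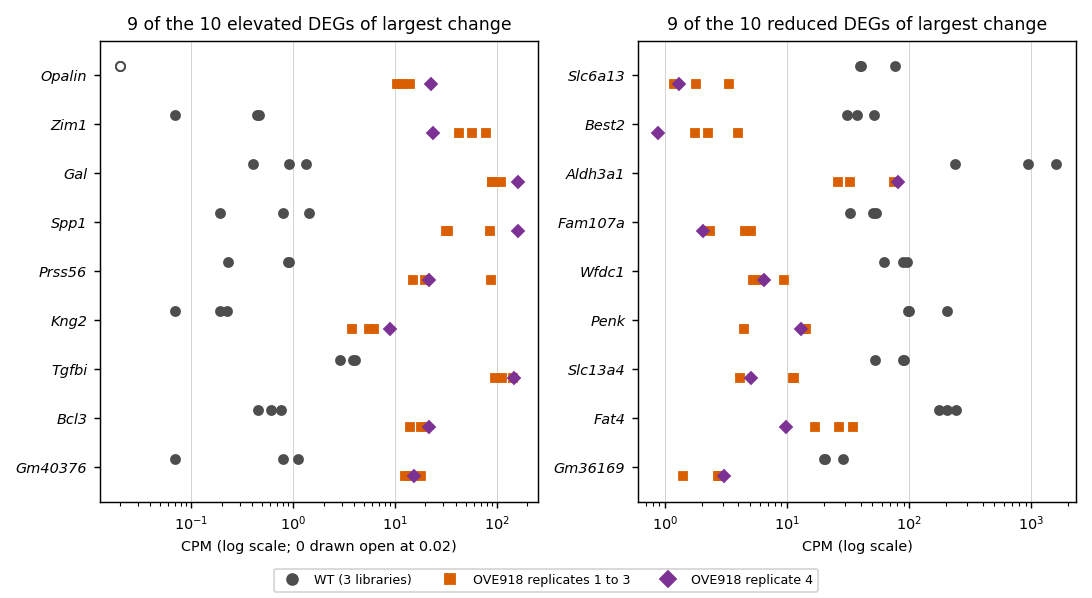
CPM on log x axes of 9 of the 10 elevated (left) and 9 of the 10 reduced (right) DEGs of largest change among those that do not overlap and average at least 5 CPM in the higher group, with 3 WT points above and 4 OVE918 points below for each gene, and OVE918 replicate 4 drawn as a diamond. Replicate 4 is the highest OVE918 library for Gal, Spp1 and Opalin, and Slc6a13 has the largest fall.

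Among genes of the TGF-β pathway itself, 2 of 13 ligands, receptors and latent binding proteins tested were elevated and 2 reduced. Besides Tgfb1, Ltbp4, a latent TGF-β binding protein, was elevated at 6.08, 5.35 and 6.87 CPM in WT and 14.2, 20.5, 18.4 and 18.4 CPM in OVE918 (log2 fold change 1.55, SE 0.15, FDR 5.44e-05). Its relative Ltbp2 moved the other way, from 157, 108 and 169 CPM to 29.4, 17.3, 41.9 and 22.1 CPM, with no overlap (log2 fold change -2.39, SE 0.28, FDR 0.000243). Tgfbr3, the co-receptor betaglycan, fell by 1.90 on the log2 scale (SE 0.16, FDR 2.03e-05). Of 18 genes listed as targets and feedback regulators, 1 was elevated and 2 were reduced, Bambi and again Ltbp2. The elevated one, Tgfbi, a secreted matrix protein named for its induction by TGF-β, was at 3.89, 4.08 and 2.91 CPM in WT and 114, 96.1, 146 and 149 CPM in OVE918, with no overlap (log2 fold change 5.13, SE 0.28, FDR 1.86e-06). Bambi, a decoy receptor of the family, was reduced with a log2 fold change of -1.99 (SE 0.22, FDR 0.000121), and without WT replicate 3 it no longer met the expression minimum. Smad7, an inhibitory SMAD and a classical target, had groups that overlapped (log2 fold change 0.03, SE 0.17, FDR 0.936). Its fitted change was near 0, and it was negative without WT replicate 3 or OVE918 replicate 2.

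Extracellular matrix genes were divided between the sets. Of 26 matricellular proteins and proteoglycans tested, 7 were elevated and 10 reduced (median log2 fold change -0.016, against 0.014 for all genes tested), and without WT replicate 3 the counts were again 7 and 10, with Sparcl1 no longer among them, and without OVE918 replicate 4 they were 7 and 9. Fn1, fibronectin of provisional matrix, was at 14.7, 13.8 and 16.1 CPM in WT and 68.9, 72.1, 103 and 97.4 CPM in OVE918 (log2 fold change 2.52, SE 0.20, FDR 1.26e-05). Tnc, tenascin C, another protein of healing tissue, was at 2.102, 2.50 and 11.3 CPM in WT and 67.03, 62.9, 89.4 and 75.4 CPM in OVE918 (log2 fold change 3.78, SE 0.58, FDR 0.00208). Fbln2, Aebp1, Postn and Spp1 were the other elevated members beside Tgfbi, and in each of them all OVE918 libraries lay above all WT libraries. The 10 reduced members were mostly small proteoglycans and fibulins. Optc, the ocular proteoglycan opticin, was the highest of these in WT, at 873, 462 and 388 CPM, and stood at 75.3, 40.3, 98.7 and 62.3 CPM in OVE918 (log2 fold change -3.05, SE 0.34, FDR 0.000209). Fbln1 was at 634, 378 and 481 CPM in WT and 148, 109, 189.5 and 119 CPM in OVE918, with no overlap (log2 fold change -1.82, SE 0.21, FDR 0.000166). Vcan, Fmod and Prelp, all proteoglycans or leucine-rich repeat proteins of matrix, had log2 fold changes of -2.58, -2.27 and -2.13.

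Collagens changed in both directions. Of 15 tested, 4 were elevated and 6 reduced, and without WT replicate 3 it was 3 and 6. Col1a1, the chain of fibrillar type I collagen that fills scars, was at 7.87, 4.31 and 3.65 CPM in WT and 31.3, 27.0, 52.1 and 79.3 CPM in OVE918, with the highest value in replicate 4 (log2 fold change 3.18, SE 0.55, FDR 0.00396). Col5a3, Col6a3 and Col27a1 were elevated with log2 fold changes of 3.96, 1.19 and 1.66. In the reduced set all 3 type IX chains were present. Col9a1 was at 692, 348 and 119 CPM in WT and 46.6, 50.8, 81.1 and 38.2 CPM in OVE918, and WT replicate 1 was far above the other WT libraries (log2 fold change -2.83, SE 0.50, FDR 0.0046). Col9a2 and Col9a3 were also reduced, with a WT mean 4.27-fold and 6.49-fold that of OVE918 in the fit. Col18a1, the basement membrane collagen that carries endostatin, was at 533, 377 and 399 CPM in WT and 63.9, 53.7, 88.7 and 56.3 CPM in OVE918 (log2 fold change -2.73, SE 0.18, FDR 5.26e-06). Col11a1 and Col23a1 were the remaining reduced members. Col2a1, which is not in the list, was a reduced DEG as well (log2 fold change -1.76). Of 21 capsule and basement membrane genes, 2 were elevated and 3 reduced. Among the reduced ones was the laminin chain Lama3, at 157, 252 and 254 CPM in WT and 44.5, 30.8, 30.96 and 18.5 CPM in OVE918 (log2 fold change -2.82, SE 0.26, FDR 5.05e-05).

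Of 14 contractile genes of myofibroblasts tested, 3 were elevated and 0 reduced, and 2 were elevated without WT replicate 3, where Tpm2 was lost, and 2 without OVE918 replicate 4. Myl9, a myosin light chain, was the steadiest, at 28.4, 31.7 and 26.3 CPM in WT and 149.7, 141, 155 and 138 CPM in OVE918 (log2 fold change 2.34, SE 0.12, FDR 1.15e-06). Tagln, an actin-binding protein of smooth muscle, was at 1.52, 0.731 and 0.456 CPM in WT and 11.01, 9.83, 19.6 and 37.6 CPM in OVE918. Replicate 4 was far above the next library, and without it the log2 fold change of 4.46 became 3.94. Acta2, the smooth muscle actin by which myofibroblasts are recognised, was at 106, 158 and 156 CPM in WT and 188, 186, 201 and 302 CPM in OVE918, with no overlap but under 2-fold (log2 fold change 0.65, SE 0.20, FDR 0.044). Of 14 metalloproteinases and their inhibitors, 4 were elevated and 0 reduced, and 3 were elevated without OVE918 replicate 4. Timp1, an inhibitor of metalloproteinases, was at 11.8, 11.7 and 8.695 CPM in WT and 98.6, 84.6, 98.3 and 153 CPM in OVE918 (log2 fold change 3.34, SE 0.23, FDR 6.09e-06), and Mmp2, a gelatinase, had a log2 fold change of 1.86 (SE 0.32, FDR 0.00244). The crosslinking enzyme Tgm2 and the laminin-binding integrin chain Itga7 were elevated by 2.53 and 2.49 log2 units. Under the expression minimum, the collagen crosslinking enzyme Lox was at 1.39, 0.615 and 0.666 CPM in WT and 3.08, 3.61, 3.27 and 5.12 CPM in OVE918.

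Among genes of inflammation and the acute phase, more were elevated than reduced. Of 30 cytokines, chemokines and acute phase genes listed, 10 met the expression minimum. Of these 10, 6 were elevated and 1 reduced, with a median log2 fold change of 1.56. The counts were 6 and 1 without WT replicate 3, and 4 and 1 without OVE918 replicate 4. A gene low in WT could meet the minimum only through the transgenic libraries, which raises the share elevated. In the fit of all 18058 genes described below, 7 were elevated and 1 reduced of 21 tested. Serpina3n (chr12:104372810-104380597), a secreted inhibitor of serine proteases and an acute phase protein, was the most abundant elevated DEG in OVE918. It stood at 72.9, 50.9 and 77.3 CPM in WT and at 1275, 1095, 1579 and 1617 CPM in OVE918, a 20.8-fold difference with no overlap (log2 fold change 4.38, SE 0.22, FDR 1.15e-06). Serpina3n has near-identical neighbours, and of these Serpina3m (0.224, 0.231 and 0.14 CPM in WT, 5.10, 5.77, 6.73 and 7.34 CPM in OVE918) and Serpina3g were under the expression minimum, so the division of reads among them is uncertain. Ccl2 and Ccl7, chemokines that attract monocytes, were at 2.86, 3.39 and 4.91 and 0.358, 0.0769 and 0.456 CPM in WT and at 15.98, 13.3, 15.8 and 28.7 and 2.87, 3.65, 4.98 and 5.72 CPM in OVE918. Both rose without overlap, by 2.30 (FDR 0.000678) and 3.83 (FDR 0.000335) log2 units. The adhesion molecules Icam1 and Vcam1, the chemokine Cxcl14 and the NAD enzyme and cytokine Nampt completed the elevated members. Il33, an alarmin stored in nuclei of barrier cells, was the reduced one, at 107, 64.6 and 122 CPM in WT and 17.99, 9.42, 23.4 and 15.1 CPM in OVE918 (log2 fold change -2.57, SE 0.31, FDR 0.000373). Bcl3, a partner of NF-κB, was at 0.76, 0.615 and 0.456 CPM in WT and 14.1, 19.8, 17.9 and 21.7 CPM in OVE918, and Osmr, the oncostatin M receptor, had a log2 fold change of 2.03 (SE 0.26, FDR 0.000367). They were the 2 elevated of 18 gp130, STAT3 and NF-κB genes tested, with 0 reduced, and 4 were elevated without WT replicate 3. Of 16 MHC class I and interferon response genes tested, 1 was elevated and 3 reduced, against 1 and 2 without WT replicate 3.

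Complement genes showed 4 elevated and 0 reduced of 10 tested, again 4 without WT replicate 3 and 3 without OVE918 replicate 4. Cfi, the protease that inactivates C3b, was at 2.55, 3.04 and 3.16 CPM in WT and 54.6, 46.6, 66.1 and 42.9 CPM in OVE918, with little spread in either group (log2 fold change 4.17, SE 0.21, FDR 1.15e-06). C4b was at 62.3, 50.6 and 107 CPM in WT and 253, 201, 304 and 195 CPM in OVE918 (log2 fold change 1.70, SE 0.26, FDR 0.00107), and it has a close paralog that could share its reads. Clu, the abundant chaperone and complement regulator clusterin, rose from 7180.4, 7290.4 and 7974 CPM to 11830.5, 11678, 11682 and 13442 CPM, with every OVE918 library above every WT library but under 2-fold (log2 fold change 0.70, SE 0.11, FDR 0.00132). C1qa, made by macrophages, was at 5.41, 3.46 and 9.68 CPM in WT and 20.3, 8.16, 12.04 and 23.1 CPM in OVE918, and it was a DEG although the groups overlapped (log2 fold change 1.35, SE 0.41, FDR 0.0446). The summed level of 12 macrophage and microglia markers was 34.1, 20.3 and 50.1 CPM in WT. In OVE918 it was 66.7, 31.1, 46.1 and 83.2 CPM, so the groups overlapped. The 3 markers that met the expression minimum were all higher in OVE918, with log2 fold changes of 1.04 to 1.35. By edgeR 1 of them, C1qa, was elevated and 0 were reduced, while DESeq2 called all 3 as elevated. The counts by edgeR were 2 and 0 without WT replicate 3, and 0 and 0 without OVE918 replicate 4. With the alternative filter described below, 2 were elevated and 0 reduced of 12 tested. None of the markers was at 0 in every library of a group, and their part in the immune genes was not tested.

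Chaperones of the endoplasmic reticulum (ER) rose together by small amounts. Of 27 genes of ER stress and chaperoning tested, 17 were elevated by the FDR alone and 0 reduced, against 8% and 11% of all genes tested. Of the 17, 6 reached a 2-fold change, Hspa5, Hsp90b1, Calr, Pdia6, Manf and Ero1a (median of the list 0.52 log2 units, against 0.014 for all genes). Of the 6, 3 remained DEGs without WT replicate 3, where Hsp90b1, Calr and Ero1a were just under 2-fold, and 4 without OVE918 replicate 4. Hspa5, the Hsp70 chaperone of the ER, was at 461, 402 and 371 CPM in WT and 829.7, 1005, 803 and 878 CPM in OVE918, every OVE918 library being above every WT library (log2 fold change 1.10, SE 0.12, FDR 9.91e-05). Calr, calreticulin, was at 476, 419.6 and 391 CPM in WT and 859, 957, 840.1 and 903 CPM in OVE918, again with no overlap (log2 fold change 1.05, SE 0.11, FDR 8.42e-05). Hsp90b1, the Hsp90 of the ER, was at 580.0, 498 and 437 CPM in WT and 931, 1061, 986 and 1212 CPM in OVE918 (log2 fold change 1.05, SE 0.14, FDR 0.000396). The transcription factor Xbp1 had a log2 fold change of 0.73 (SE 0.13, FDR 0.00322), and Ddit3, which marks a cell under lasting ER stress, was at 16.1, 15.2 and 30.2 CPM in WT and 19.7, 19.9, 22.97 and 33.4 CPM in OVE918 with overlapping groups.

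The ER stress response element is a bipartite sequence, CCAAT and CCACG with 9 free bases between them, known from promoters of ER chaperones. It was searched on both strands in the 250 bases before the annotated start (RefSeq, GRCm38.p6). Of the 11097 genes tested, 7931 had a promoter in the table and 14 of these (0.177%) held the element. Of the 27 ER genes, 23 had a promoter and 8 (34.8%) held it, among them Hspa5, Hsp90b1, Calr and Pdia6 of the 6 DEGs. The elevated DEGs held it in 4 of 201 promoters and the reduced DEGs in 0 of 236. The promoters of the 3 most abundant of these genes are given from 250 bases upstream to the base before the start, 5′ to 3′ on the strand of the gene, with each match in capitals and on either strand, to show where the element sits in genes that rose together. Other motifs searched in the same way, on either strand, were an AP-1 site (TGA and TCA around 1 free base), held by 3.71% of all promoters, 6.97% of elevated and 3.81% of reduced DEGs, and a STAT site (TTC and GAA around 3 free bases), held by 5.47%, 7.96% and 5.08%. The SMAD-binding hexamer CAGACA was held by 12.5%, 14.4% and 16.9%, and the cAMP response element, TGAC next to GTCA, by 2.87%, 2.99% and 0.424%. A match describes letters and not a site in use.
Hspa5 (chr2:34771840-34772089, plus strand): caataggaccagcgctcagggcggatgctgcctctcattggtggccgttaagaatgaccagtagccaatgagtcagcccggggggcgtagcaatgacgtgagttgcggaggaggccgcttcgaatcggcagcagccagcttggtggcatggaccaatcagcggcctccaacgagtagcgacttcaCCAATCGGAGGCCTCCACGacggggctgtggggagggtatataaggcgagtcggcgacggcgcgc
Hsp90b1 (chr10:86705445-86705694, minus strand): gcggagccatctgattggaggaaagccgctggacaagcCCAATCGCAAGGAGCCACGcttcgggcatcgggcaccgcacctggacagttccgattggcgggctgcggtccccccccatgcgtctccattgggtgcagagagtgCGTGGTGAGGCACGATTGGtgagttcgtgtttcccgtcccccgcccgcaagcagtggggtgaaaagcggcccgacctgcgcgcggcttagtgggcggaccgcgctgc
Calr (chr8:84846932-84847181, minus strand): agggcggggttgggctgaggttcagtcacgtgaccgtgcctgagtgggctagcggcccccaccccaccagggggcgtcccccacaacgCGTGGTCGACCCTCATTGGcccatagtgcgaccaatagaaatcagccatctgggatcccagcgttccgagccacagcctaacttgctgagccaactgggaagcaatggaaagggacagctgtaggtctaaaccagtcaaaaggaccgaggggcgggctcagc
Hspa5 held 1 match, 65 to 47 bases upstream. Hsp90b1 held 1 on each strand, 212 to 194 and 107 to 89 bases upstream, and Calr held 1 on the opposite strand, 162 to 144 bases upstream.

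Imprinted genes, expressed from 1 parental allele and abundant mainly before birth, also moved. Of 14 tested, 6 were elevated and 1 reduced, and the counts were the same without OVE918 replicate 4. Without WT replicate 3 they were also 6 and 1, but Grb10, the reduced one, was lost and another gene took its place. Zim1 (chr7:6674268-6699500) was at 0.447, 0.462 and 0.0701 CPM in WT and 42.7, 77.7, 57.04 and 23.9 CPM in OVE918 (log2 fold change 7.30, SE 0.58, FDR 3.28e-05). Its neighbour Peg3 (chr7:6706882-6733468), also a zinc finger gene, was at 74.1, 60.6 and 49.2 CPM in WT and 312, 490.5, 409.6 and 251 CPM in OVE918, with no overlap (log2 fold change 2.58, SE 0.23, FDR 3.53e-05). H19, a noncoding RNA of another imprinted cluster, was at 0.805, 1.15 and 0.561 CPM in WT and 11.1, 11.9, 18.95 and 26.5 CPM in OVE918 (log2 fold change 4.35, SE 0.45, FDR 9.94e-05). Meg3 and Rian, noncoding RNAs that lie close to each other on chromosome 12, were high in WT replicate 3 among the WT libraries. Meg3 was at 25.4, 22.3 and 98.3 CPM in WT and 251, 269, 271 and 206 CPM in OVE918 (log2 fold change 2.35, SE 0.49, FDR 0.01). Igf2r was elevated by 1.41 log2 units, and the reduced member was Grb10, at 15.5, 15.5 and 21.6 CPM in WT and 7.32, 5.59, 5.54 and 6.55 CPM in OVE918. Among the abundant elevated DEGs was Islr, a secreted leucine-rich protein, with a log2 fold change of 1.11 that was 0.81 without WT replicate 3. Further elevated genes were Car2 and Car9, carbonic anhydrases with log2 fold changes of 1.71 and 3.38, and Cdkn1a, the cell cycle inhibitor p21 (2.07).

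Where a list named here held 0 DEGs in one direction by edgeR, some members still passed an unadjusted p under 0.05 in that direction. Lower in this sense were 1 of the contractile, 4 of the metalloproteinase, 1 of the complement and 1 of the ER genes. So was 1 of the gp130, STAT3 and NF-κB genes, and DESeq2 called 0 in each of these lists. Higher in this sense were 1 of the transporters, 2 cholesterol and fatty acid genes, 5 antioxidant genes, 1 of the ciliary markers and 1 of the Müller markers, of which DESeq2 called 1 antioxidant gene and 1 Müller marker. By the FDR alone, with no minimum fold change, all of those lower but the ER gene also passed, against 11% of all genes tested. Of those higher, 1 cholesterol and fatty acid gene, 3 antioxidant genes and 1 ciliary marker passed, against 8%.

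**Figure D3:**
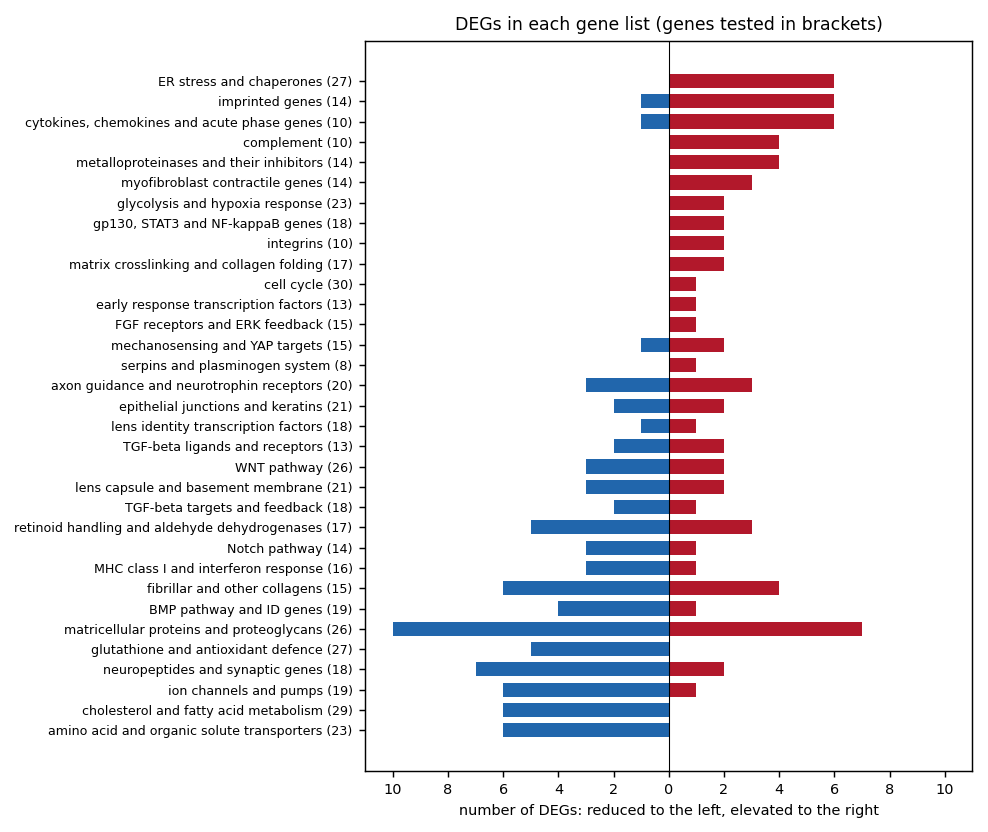
Number of DEGs in each functional gene list with at least 1 DEG, reduced to the left and elevated to the right of 0, with the number of genes tested in brackets. Transporter, lipid and antioxidant lists hold reduced DEGs alone (6, 6 and 5), ER chaperones and complement elevated DEGs alone (6 and 4), and the matricellular, collagen and capsule lists hold both.

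The reduced set was the larger of the pair in this fit, and WT replicate 3 decided part of it. With limma's voom and weights for library quality, the elevated set was the larger, with 320 elevated and 280 reduced. WT replicate 3 was the highest WT library in 68.4% of the reduced DEGs, against 40.5% of all genes tested. Without it, 313 of the 335 genes still met the expression minimum and all 313 were lower in OVE918, but 239 of them remained DEGs, and 249 genes were reduced in all. The 335 genes were chosen as lower in OVE918, and this fit reuses the OVE918 libraries and WT replicates 1 and 2. The shared direction was therefore largely fixed by that choice. Of the 286 elevated DEGs, 229 remained without WT replicate 3. The median log2 fold change of the reduced DEGs moved from -1.54 to -1.33. The genes that were tested but lost had a median of -0.85, just short of 2-fold. Without both WT replicate 3 and OVE918 replicate 4, 231 genes were reduced and 264 elevated, so that, as without WT replicate 3 alone (274 elevated), the elevated set was the larger. Without any 1 of the 7 libraries, 214 reduced (63.9%) and 181 elevated DEGs (63.3%) were called every time. Of the 335 reduced DEGs, 10 belonged to the marker lists of other cell types, and of the 286 elevated DEGs 3 did. These lists held few tested genes. The reduced ones were 5 of 8 ciliary, 4 of 9 Müller glia and 1 of 2 cornea and conjunctiva markers tested, against 3.02% of all genes tested.

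Transport genes were among those that fell. Of 23 amino acid and organic solute transporters tested, 0 were elevated and 6 reduced, 5 of these also without WT replicate 3 (median log2 fold change -0.54). Slc6a13 (chr6:121277186-121316121), which carries GABA and taurine, had the largest fall among all reduced DEGs. It fell from 39.9, 40.5 and 76.9 CPM in WT to 1.799, 1.19, 3.34 and 1.29 CPM in OVE918. The groups were far apart (log2 fold change -4.77, SE 0.41, FDR 5.04e-05), and it is the member that no longer met the expression minimum without WT replicate 3. Slc6a6, the taurine transporter by which lens cells hold their main osmolyte, was the second most abundant reduced DEG in WT, at 1792, 1039.6 and 1831 CPM in WT and 412, 333, 495 and 307 CPM in OVE918 (log2 fold change -2.01, SE 0.21, FDR 8.77e-05). Slc6a9, Slc6a15, Slc13a4 and Slc22a8 fell by 1.38 to 3.29 on the log2 scale. Of 19 ion channels and pumps, 1 was elevated and 6 reduced, against 2 and 5 without WT replicate 3 and 1 and 5 without OVE918 replicate 4. Atp1b1, a β subunit of the sodium pump, fell from 151, 139 and 207 CPM to 87.4, 66.9, 67.7 and 67.96 CPM (log2 fold change -1.20, SE 0.14, FDR 0.000243), and the potassium channel Kcnk1 from 56.3, 56.9 and 74.6 CPM to 20.7, 20.3, 17.9 and 21.04 CPM (log2 fold change -1.65, SE 0.11, FDR 5.26e-06).

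Gap junction genes moved in both directions. Gja1 (chr10:56253241-56278609), connexin 43, which couples lens epithelial cells, was at 572, 546 and 512 CPM in WT and 63.6, 79.9, 63.8 and 55.6 CPM in OVE918. The groups were tight and far apart, an 8.27-fold reduction (log2 fold change -3.05, SE 0.14, FDR 1.1e-06). It was the 1 reduced gene among the 10 lens epithelial markers. Gjb2, another connexin, stood at 0.0447, 0.308 and 0.28 CPM in WT and 5.78, 5.92, 6.47 and 7.15 CPM in OVE918, under the expression minimum (log2 fold change 4.86, SE 0.39, FDR 2.2e-05 in the fit of all 18058 genes described below). Cdh1, E-cadherin, was at 349.9, 395 and 258 CPM in WT and 192, 277, 200.1 and 205 CPM in OVE918, where replicate 2 overlapped WT (log2 fold change -0.61, SE 0.17, FDR 0.0305). Cldn1, a claudin of tight junctions, fell by 2.67 on the log2 scale (FDR 0.000395).

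Several of the largest falls were of genes also known from the neighbouring ciliary epithelium. Of 8 non-pigmented ciliary epithelium markers tested, 5 were reduced and 0 elevated, and 4 were reduced without WT replicate 3. Best2, a chloride channel of that epithelium, was at 51.4, 31.04 and 37.2 CPM in WT and 3.98, 1.75, 2.27 and 0.877 CPM in OVE918 (log2 fold change -4.16, SE 0.38, FDR 5.47e-05). Wfdc1, a secreted protease inhibitor, was at 96.7, 62.4 and 89.9 CPM in WT and 5.87, 5.25, 9.44 and 6.46 CPM in OVE918 (log2 fold change -3.62, SE 0.25, FDR 7.88e-06). Slc6a13, Zic1 and Rarres2 were the others. The summed level of the list did not follow, at 1853, 1931 and 1794 CPM in WT and 2393, 2355, 2553 and 2502 CPM in OVE918. Cp and Aqp1, the most abundant of its genes, were not DEGs. None of its markers was at 0 in every library of a group, and the part of these cells in the reduced genes was not tested. Of 9 Müller glia markers, 4 were reduced and 0 elevated, with 3 and 1 without WT replicate 3 and 3 and 0 without OVE918 replicate 4. Among them Glul, glutamine synthetase, was at 333, 329.8 and 1060.4 CPM in WT and 136, 83.1, 126 and 99.4 CPM in OVE918, and without WT replicate 3 its log2 fold change of -2.37 was -1.58. Their summed level was 9086, 8652 and 11522 CPM in WT and between 6575 and 7264 CPM in OVE918, most of it from Vim and Dkk3, which were not DEGs, and its part in the result was not tested.

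Neuropeptide and synaptic genes were another reduced group, with 7 reduced and 2 elevated of 18 tested, and again 7 and 2 without WT replicate 3 or without OVE918 replicate 4 (median log2 fold change -2.22). Penk, which encodes enkephalin precursors, was at 99.1, 98.1 and 203 CPM in WT and 13.8, 4.47, 14.3 and 12.9 CPM in OVE918 (log2 fold change -3.56, SE 0.42, FDR 0.000477). Pdyn, the precursor of dynorphins, was at 26.3, 22.2 and 63.04 CPM in WT and 7.28, 7.599, 10.5 and 7.75 CPM in OVE918 (log2 fold change -2.17, SE 0.32, FDR 0.00101). WT replicate 3 was the highest library for both, and it was the library with the high retinal neuron markers. Crhbp, a protein that binds corticotropin-releasing hormone, was also highest there but by less, at 119.9, 83.98 and 126 CPM in WT and 16.02, 7.52, 24.6 and 13.1 CPM in OVE918 (log2 fold change -2.84, SE 0.32, FDR 0.000215). Fam107a, a stress-responsive actin regulator, fell by 3.70 on the log2 scale. The elevated members were Gal and Tacr1, the substance P receptor, which was at 203, 246 and 168 CPM in WT and 526, 642, 579 and 439 CPM in OVE918 (log2 fold change 1.41, SE 0.16, FDR 0.000153). The neurotrophin receptors also diverged, with Ntrk2 at 208, 131 and 184 CPM in WT and 34.4, 17.7, 37.2 and 27.3 CPM in OVE918 (log2 fold change -2.58, SE 0.23, FDR 4.26e-05) and Ngfr elevated from 108, 98.8 and 105 CPM to 206, 239, 223 and 231 CPM (log2 fold change 1.11, SE 0.08, FDR 9.4e-06).

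Some lipid and antioxidant genes fell. Of 29 cholesterol and fatty acid genes, 0 were elevated and 6 reduced, all 6 also without WT replicate 3 (median log2 fold change -0.30). Apoe, the lipid carrier apolipoprotein E, was in WT the most abundant of the 335 reduced DEGs. It stood at 1342, 1152 and 2559 CPM in WT and 476, 305, 420.0 and 513 CPM in OVE918, and without WT replicate 3, its highest library, the log2 fold change of -1.97 was -1.54. Fads2, a desaturase, was steadier, at 116, 123 and 148 CPM in WT and 52.3, 51.4, 55.8 and 51.4 CPM in OVE918 (log2 fold change -1.29, SE 0.09, FDR 8.92e-06). Insig1, Scd1, Acsl3 and Lpl were the other reduced members. Of 27 glutathione and antioxidant genes, 0 were elevated and 5 reduced, again 5 without WT replicate 3. Gpx3, the secreted glutathione peroxidase, was at 178, 147 and 332 CPM in WT and 24.7, 10.5, 30.3 and 34.1 CPM in OVE918 (log2 fold change -3.14, SE 0.42, FDR 0.000933). Mt1, a metallothionein, was at 63.8, 47.6 and 62.9 CPM in WT and 9.21, 5.29, 6.09 and 16.6 CPM in OVE918 (log2 fold change -2.65, SE 0.41, FDR 0.00168), and Prdx6, Sod3 and Gstm2 fell by 1.77, 2.22 and 1.22 on the log2 scale.

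Retinoid genes were split, with 3 elevated and 5 reduced of 17 tested, against 3 and 2 without WT replicate 3 and 2 and 4 without OVE918 replicate 4. Aldh3a1, an aldehyde dehydrogenase that is abundant in cornea, was at 236, 937 and 1611 CPM in WT and 75.5, 26.3, 32.9 and 80.5 CPM in OVE918. The WT libraries were widely spread and ran in the same order as the summed cornea markers, of which this gene was the greater part (log2 fold change -4.11, SE 0.66, FDR 0.00279). The part of other ocular cells in this gene was not tested. Crabp2, a carrier of retinoic acid, was elevated at 0.76, 0.731 and 0.631 CPM in WT and 3.94, 2.68, 3.57 and 3.92 CPM in OVE918 (log2 fold change 2.31, SE 0.21, FDR 3.57e-05). Stra6, the receptor for retinol binding protein, was elevated by 1.42 log2 units. Rlbp1, Dhrs3 and Aldh2 were DEGs with WT replicate 3 and not without it.

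Secreted regulators of other pathways were among the reduced genes. Over all genes tested, 2.58% were elevated and 3.02% reduced. Of 19 BMP pathway and ID genes, 1 was elevated and 4 reduced, and without WT replicate 3 the counts were 1 and 2, with Bambi untested and Bmp7 just under 2-fold. Bmp4 was at 24.3, 13.7 and 17.2 CPM in WT and 4.33, 1.68, 3.16 and 3.55 CPM in OVE918, and Bmp7, a ligand made by the lens, at 142, 149 and 151 CPM and 68.8, 84.3, 67.7 and 72.3 CPM. The groups were apart for both, with log2 fold changes of -2.54 (SE 0.28, FDR 0.00012) and -1.01 (SE 0.09, FDR 4.32e-05). Chrdl1, a secreted BMP antagonist, also fell, from 115, 160.4 and 201 CPM to 42.4, 35.7, 35.7 and 33.6 CPM (log2 fold change -2.11, SE 0.16, FDR 1.26e-05), whereas Fst, the activin antagonist follistatin, was the elevated member at 5.55, 5.69 and 4.28 CPM in WT and 17.05, 18.1, 26.3 and 43.4 CPM in OVE918 (log2 fold change 2.34, SE 0.31, FDR 0.000525). Of 26 WNT pathway genes, 2 were elevated and 3 reduced (median log2 fold change 0.029, against 0.014 for all genes tested). The counts were 1 and 1 of 24 tested without WT replicate 3, and 1 and 3 without OVE918 replicate 4. Notum, an enzyme that inactivates WNT ligands, was at 37.7, 16.7 and 21.2 CPM in WT and 3.34, 2.98, 4.01 and 3.46 CPM in OVE918 (log2 fold change -2.87, SE 0.29, FDR 7.84e-05), and it no longer met the expression minimum without WT replicate 3. Rspo1, which amplifies WNT signals, was at 121, 191 and 217 CPM and 59.3, 56.4, 56.8 and 61.5 CPM (log2 fold change -1.59, SE 0.17, FDR 9.4e-05). Of 14 Notch pathway genes, Dll1, Hes1 and Hes5 were reduced and Jag1 was elevated with overlapping groups. Without WT replicate 3, Jag1 and Hes1 were not DEGs (FDR 0.0633 and 0.0621), which left 0 elevated and 2 reduced. Spry1, a feedback inhibitor of ERK signalling, was elevated at 14.3, 15.6 and 16.4 CPM in WT and 51.1, 62.9, 62.6 and 60.8 CPM in OVE918 (log2 fold change 1.94, SE 0.11, FDR 1.86e-06).

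Other abundant reduced genes were named by their level alone. R3hdml, which encodes a secreted cysteine-rich protein, was at 1071, 1083 and 1217 CPM in WT and 349.9, 336, 223 and 479 CPM in OVE918 (log2 fold change -1.70, SE 0.20, FDR 0.000226). Ptgds, the prostaglandin D synthase that is also a retinoid carrier, was at 861, 663 and 984 CPM in WT and 239, 164, 180.5 and 287 CPM in OVE918 (log2 fold change -1.94, SE 0.19, FDR 6.72e-05). Both had groups that did not overlap. Fat4, a giant protocadherin of planar polarity, fell by 3.23 on the log2 scale, and its OVE918 values of 16.8, 34.9, 26.5 and 9.73 CPM were lowest in replicate 4.

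Some lists that mark cell state held few or no DEGs. By the FDR alone, 0 crystallins, 0 fiber genes, 0 transcription factors of epithelial-mesenchymal transition and 2 cell cycle genes were elevated. By the same measure 0 were reduced in each list, against 8% elevated and 11% reduced of all genes tested. The share of all genes at an unadjusted p under 0.05 was not counted and is at least as large, so the counts at that threshold have no background here. None of 16 crystallins was a DEG by edgeR (median log2 fold change 0.54), while 5 were higher and 0 lower at an unadjusted p under 0.05 and DESeq2 called 5 as elevated. The γ-crystallins, which belong to fiber cells, varied within the groups. Crygd was at 1475, 489 and 204 CPM in WT and 8472, 1474, 4781 and 9646 CPM in OVE918 (log2 fold change 3.08, SE 1.20, FDR 0.113). OVE918 replicate 2 was within the WT range for it, and replicates 1, 3 and 4 were above. None of 15 fiber membrane and cytoskeleton genes was a DEG by edgeR, 5 were higher and 0 lower at an unadjusted p under 0.05, and DESeq2 called 2 as elevated. Of 4 transcription factors of epithelial-mesenchymal transition that met the expression minimum, none was a DEG by edgeR, 2 were higher and 0 lower at an unadjusted p under 0.05, and DESeq2 called 1, as did edgeR without WT replicate 3. Snai2 stood at 1.07, 0.154 and 0.596 CPM in WT and 0.171, 0.372, 0.632 and 0.738 CPM in OVE918, under the expression minimum (log2 fold change -0.30, SE 0.65, FDR 0.79 in the fit of all 18058 genes). Of 30 cell cycle genes, 1 was a DEG by edgeR, while 11 were higher and 0 lower at an unadjusted p under 0.05 and DESeq2 called 2 as elevated (median log2 fold change 0.53). The DEG was Cdkn1a, at 3.09, 3.27 and 5.64 CPM in WT and 10.9, 12.2, 18.7 and 26.1 CPM in OVE918 (log2 fold change 2.07, SE 0.35, FDR 0.00222). Mki67, a marker of proliferating cells, was at 68.9, 61.6 and 18.9 CPM in WT, lowest in replicate 3, and at 67.9, 95.3, 86.1 and 70.1 CPM in OVE918 (FDR 0.221).

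The expression minimum of 2 FPKM in at least 5 of the 10 libraries cannot be met by a gene expressed in the 3 WT libraries alone. Genes were therefore also fitted with edgeR's filterByExpr, an alternative filter that follows the size of the smallest group and needs no gene length. It passed 18058 genes, with 623 elevated (3.45%) and 964 reduced (5.34%). Of the 6999 genes that the FPKM minimum had left out, 338 (4.83%) were elevated and 639 (9.13%) reduced in this fit. Of the 639, 422 were again reduced without WT replicate 3 and 473 without OVE918 replicate 4. Most of the reduced ones were low, with a median WT level of 4.97 CPM, but 46 had a WT mean of 20 CPM or more. The levels of the genes that follow were known when they were chosen, and they serve as a description.

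Exactly 65 genes reached 2 FPKM in all 3 WT libraries and in no transgenic library. Their lower level in OVE918 follows from how they were chosen, so they are given with no test. Jph2, a protein that ties the plasma membrane to the sarcoplasmic reticulum, was at 49.8, 63.01 and 69.8 CPM in WT and 4.28, 7.11, 5.83 and 8.26 CPM in OVE918 (log2 fold change -3.23). Oca2 (chr7:55889191-56186280), a melanosomal transport protein, was at 42.9, 60.2 and 73.7 CPM in WT and 1.16, 1.15, 0.483 and 1.61 CPM in OVE918, with a log2 fold change of -5.73. The summed level of 10 pigmented epithelium markers was 155, 52.1 and 102 CPM in WT and between 44.96 and 83.7 CPM in OVE918, and it overlapped. Cdh3, P-cadherin, was at 19.5, 29.5 and 31.1 CPM in WT and 1.71, 1.90, 1.23 and 2.12 CPM in OVE918 (log2 fold change -3.92), and Bmp2 at 20.1, 11.96 and 25.2 CPM and 2.48, 4.62, 4.98 and 4.75 CPM (log2 fold change -2.15). OVE853 was low as well, at 1.75, 3.82 and 2.69 CPM for Oca2 and 3.05, 2.74 and 2.69 CPM for Cdh3. Slc7a11, the cystine importer that feeds glutathione synthesis, passed the minimum in too few libraries and belongs to the transporter list. It was at 85.7, 128 and 161 CPM in WT and 10.4, 7.86, 10.2 and 5.54 CPM in OVE918, with no overlap (log2 fold change -3.85, SE 0.25, FDR 9.77e-06).

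**Figure D4:**
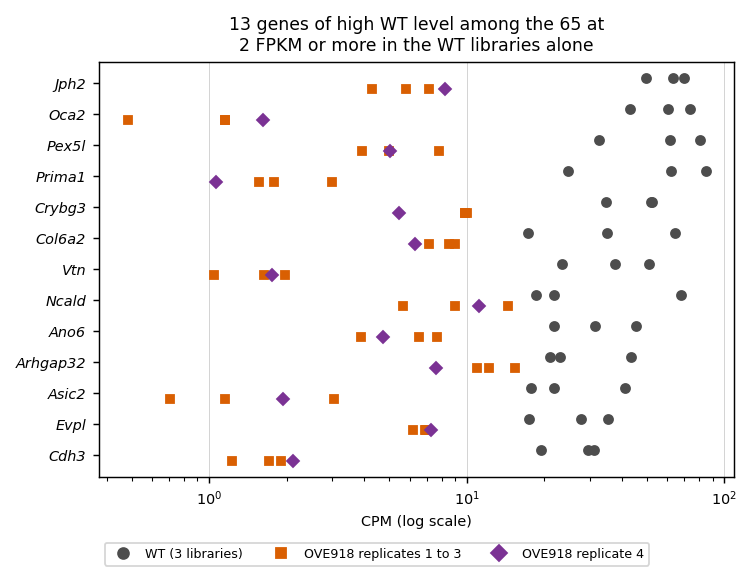
CPM on a log x axis of 13 genes of high WT level among the 65 at 2 FPKM or more in the WT libraries alone, with WT points above and OVE918 points below for each gene. The genes were chosen for being higher in WT, and the plot shows by how much the levels differ and how far the libraries of a group spread.

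In the other direction, 4 genes reached 2 FPKM in all 4 OVE918 libraries and in none of the 6 others, namely Ednrb, Cdkn2b, Krt17 and Fgf21. The 2 counts cannot be compared, since these 4 genes had to be low in OVE853 as well as in WT. Genes at 2 FPKM in both transgenic lines and not in WT met the expression minimum and were not counted here. Krt17, a keratin of stressed epithelia, was at 0.358, 0.885 and 0.386 CPM in WT and 6.64, 5.33, 5.91 and 10.9 CPM in OVE918 (log2 fold change 3.73). Fgf21, a hormone of metabolic stress, was at 0, 0.0385 and 0.175 CPM in WT and 2.53, 2.16, 3.23 and 6.27 CPM in OVE918, of which replicate 4 was the highest (log2 fold change 5.48). These genes too were chosen by the difference in level.

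OVE918 replicate 4 differed from the other OVE918 libraries across many genes by small amounts. Its root mean square distance to them was 0.370, 0.486 and 0.410 log2 units, against 0.275 between replicates 1 and 3, and 0.722 to 0.869 to the WT libraries. The WT libraries lay 0.396, 0.528 and 0.624 log2 units from each other. The largest of these, between WT replicates 1 and 3, exceeded the 0.615, 0.620 and 0.595 between WT replicate 1 and OVE918 replicates 1 to 3. OVE918 replicate 4 was the highest or the lowest of the 4 libraries in 71.9% of genes, where replicate 2 was in 60.5%, replicate 1 in 35.0% and replicate 3 in 32.5%. Large deviations were few. Only 48 genes (0.433%) lay 2-fold or more beyond the nearest other OVE918 library in replicate 4, 8 above and 40 below, fewer than the 79 of replicate 2. By the same measure among the 3 WT libraries, WT replicate 3 had 445 genes apart (4.01%). Of the 48 genes of OVE918 replicate 4, 3 were DEGs.

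The deviation of replicate 4 followed the length of the gene. Its median deviation from the mean of the other OVE918 libraries was 0.34 log2 units for genes of under 1 kb of exon, 0.22 for 1 to 2 kb, 0.058 for 2 to 4 kb, -0.16 for 4 to 8 kb and -0.45 for 8 kb and over. Replicates 2 and 3 ran the other way, from -0.18 to 0.29 and from -0.18 to 0.17. Replicate 4 is itself part of the mean against which the others were set. The WT libraries also followed length, each against the mean of the other WT libraries, with medians from -0.31 in the shortest to 0.13 in the longest class for replicate 1 and from 0.14 to -0.15 for replicate 3. In the contrast of the groups, the median log2 fold change was 0.14 for genes under 1 kb and between -0.020 and 0.024 for the longer classes. DEGs were 2.69% elevated and 1.44% reduced under 1 kb, and 2.55% elevated and 2.44% reduced at 8 kb and over.

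**Figure D5:**
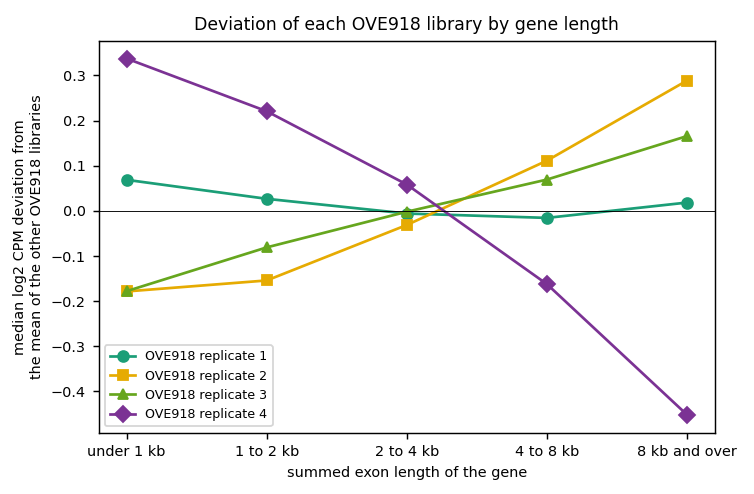
Median deviation of each OVE918 library from the mean of the other 3, in log2 CPM on the y axis, for 5 classes of summed exon length on the x axis. Replicate 4 falls from 0.34 in the shortest to -0.45 in the longest genes, and replicates 2 and 3 rise.

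Genes were also named by how far replicate 4 lay from the nearest other OVE918 library, 8 in each direction, which is a description. Zbed6, a transposon-derived repressor lying within another gene, was at 38.8, 45.3, 42.96 and 12.0 CPM in OVE918 and 33.8, 35.9 and 19.99 CPM in WT. Kmt2d, a histone methyltransferase, was at 106, 134, 110.3 and 48.4 CPM in OVE918 and 112, 98.1 and 73.6 CPM in WT, and Smg1, a kinase of mRNA surveillance, at 98.8, 114, 105 and 42.6 CPM and 82.6, 84.7 and 72.3 CPM. In all 3, replicates 1 to 3 were close to each other and replicate 4 was far below them. Lnpep, Elk4, Samd5, Tnks and Scai had the same form, and none of the 8 was a DEG (log2 fold changes -0.23 to 0.46). On the higher side were Crip1, Serpine2, Gje1, Gcg, Igfbp2, Hba-a1, Tagln and Spp1. Crip1, a small LIM protein, was at 56.3, 43.8, 61.5 and 131 CPM in OVE918 and 16.1, 31.6 and 29.5 CPM in WT (log2 fold change 1.51, SE 0.40, FDR 0.0283), and its FDR was 0.0683 without WT replicate 3. Gcg, the glucagon precursor, was at 8.01, 8.01, 8.44 and 16.8 CPM in OVE918 and 3.71, 2.00 and 0.666 CPM in WT, so that the other replicates were above WT too (log2 fold change 2.30, SE 0.49, FDR 0.00803). Hba-a1, an α-globin with a near-identical copy, was at 11.4, 5.59, 16.5 and 31.7 CPM in OVE918 and 13.4, 19.6 and 9.57 CPM in WT, and its fitted change of 0.20 was negative without replicate 4 and without WT replicate 3. The summed level of 7 erythrocyte markers was 33.9, 42.6 and 20.5 CPM in WT and 25.7, 13.8, 40.5 and 74.3 CPM in OVE918, again highest in replicate 4.

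The summed level of 10 fiber cell markers was also highest in replicate 4, with replicate 1 next. It was 90435, 51230.0, 68359 and 97352 CPM in OVE918 and 63978, 62821 and 66438 CPM in WT. That of 16 listed fiber membrane and cytoskeleton genes was instead highest in replicate 1, at 18856, 15735, 17521 and 18362 CPM in OVE918. Leaving replicate 4 out gave 247 elevated and 306 reduced DEGs. In these, which were called without it, replicate 4 had the same direction against the WT mean in 246 of 247 elevated and 306 of 306 reduced genes, with median differences of 1.71 and -1.64 log2 units. The WT libraries are shared by both sides of that check.

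Against OVE853, fitted in the same model, OVE918 differed in 54 genes, 8 higher (0.0721%) and 46 lower (0.415%). This count rested on single libraries. It was 6 to 10 without any 1 OVE853 library, and 13 without OVE918 replicate 1 or 4, 87 without OVE918 replicate 2, 33 without WT replicate 2 and 93 without WT replicate 3, which enters through the shared estimate of the spread and the genes tested. Tgfb1 was at 361, 339 and 349 CPM in the OVE853 libraries, each below the lowest OVE918 library, a log2 difference of 1.15 (SE 0.11, FDR 0.00388). Chi3l1, a secreted chitinase-like protein, was at 7.64, 4.67 and 6.74 CPM in OVE853, 112, 30.4, 123 and 130.4 CPM in OVE918 and 20.7, 18.0 and 54.3 CPM in WT, so that the lines differed by 3.95 (SE 0.63, FDR 0.0355) while OVE918 overlapped WT. Opalin, Sct, Gpr27 and Kctd12 were the other genes higher in OVE918 that the rule named.

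Genes lower in OVE918 than in OVE853 came mainly from the reduced set. Of the 335 reduced DEGs, 33 differed between the lines and all 33 were lower in OVE918, and of the 286 elevated DEGs 7 differed, 4 of them higher in OVE918. The DEGs and this difference share the OVE918 libraries. F5, coagulation factor V, was at 25.3, 21.1 and 35.7 CPM in OVE853, 5.53, 5.401, 11.3 and 4.01 CPM in OVE918 and 39.1, 29.2 and 47.02 CPM in WT (log2 difference between the lines -2.06, SE 0.33, FDR 0.0249). Dio3, an enzyme that inactivates thyroid hormone, was at 18.3, 19.8 and 12.3 CPM in OVE853, 4.497, 2.42, 6.35 and 3.04 CPM in OVE918 and 15.8, 11.2 and 16.02 CPM in WT (log2 difference between the lines -2.04, SE 0.30, FDR 0.019). Col2a1, the type II collagen chain of vitreous and cartilage, was at 58.6, 65.8 and 69.8 CPM in OVE853, 17.3, 12.6, 31.7 and 15.6 CPM in OVE918 and 84.8, 51.9 and 59.7 CPM in WT (log2 difference between the lines -1.74, SE 0.28, FDR 0.026). In these 3 genes the OVE853 libraries lay near or within the WT range and all OVE918 libraries below both. Ltbp2, Cldn1 and Crhbp were lower by 1.67 to 1.73 log2 units, and Col18a1 by 1.44. Against WT, OVE853 itself had 279 elevated (2.51%) and 212 reduced (1.91%) DEGs, beside the 286 and 335 of OVE918, and both comparisons share the WT libraries. A p-value that missed the threshold between the lines does not show that they were alike.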

How the data were processed

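RNA from pooled lens epithelial explants was sequenced as 150 bp paired-end mRNA libraries. Per the labels and the study's methods, the authors used Cutadapt 5.2 for trimming, STAR 2.7.11b for alignment to GRCm39 and featureCounts 2.0.8, reverse-stranded, for counting over RefSeq genes. The deposited values are raw counts per gene, not normalized, with 24073311 to 28645174 counts per WT and OVE918 library. Replicates are pools of explants. The p-values measure the spread between pools.

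Counts were fitted with edgeR 4.0.16 (quasi-likelihood test, TMM factors, R 4.3.3) over all 3 groups, and the Benjamini-Hochberg adjustment covered 11097 genes. Genes needed at least 2 FPKM in 5 of 10 libraries, with exon lengths taken from the GENCODE annotation of GRCm39, since RefSeq lengths were not used here. Of 50763 genes, 7489 had no length. DEGs passed an FDR of 0.05 and a log2 change of 1 in either direction. CPM are on the TMM scale, and log2 CPM used a prior count of 2. On simulated counts with 200 genes changed 4-fold, 191 (95.5%) were recovered with 2 false calls. Genes were drawn independently, with no shift shared by a whole library, so these figures do not measure errors from such shifts. Alternatives used DESeq2 1.42.0 and limma 3.58.1.

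Named were Tgfb1 and Cryaa, in each direction the 10 DEGs of largest change (no overlap, at least 5 CPM in the higher group) and the 8 most abundant, members of the gene and marker lists, 8 genes per direction set apart by OVE918 replicate 4, and 6 per direction between the lines. The lists and the comparison were chosen with earlier results of these data known. Some genes that the rule names are not reported here. Genes under the expression minimum were described after their values were seen. RefSeq promoters of GRCm38.p6 were matched by symbol.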

Additional observations from a re-analysis of the deposited data

Results flagged for a closer look

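In 10 of 151 named genes (6.62%), 1 OVE918 library lay apart from the other 3 by Dixon's ratio of gap to range, whose 95% critical value for 4 samples is 0.829. Chance sets about 1 in 20 groups apart in this way. The count leaves out 16 genes that were named because replicate 4 lay far from the others, of which Gcg and Serpine2 also passed the critical value. Replicate 4 was the library apart in 3 of the 10 genes, replicate 2 in 4, replicate 1 in 2 and replicate 3 in 1. Replicate 4 was high for Gcg (ratio 0.951), Clu (0.913), Serpine2 (0.884), Acta2 (0.867) and Pdia6 (0.837). Replicate 2 was low for Lpl (0.871) and Penk (0.862), and high for Slc6a15 (0.886) and Cdh1 (0.848). Replicate 1 was high for Atp1b1 (0.947) and Prss56 (0.912), and replicate 3 for Pdyn (0.855).

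In 28 named genes the change from WT differed between the lines by the test of OVE918 against OVE853 (edgeR's quasi-likelihood test, FDR at most 0.05 and at least 2-fold), given as log2 OVE918 minus OVE853, and 12 of them had been named by that same difference. Higher in OVE918 were Chi3l1 (3.95), Opalin (2.07), Sct (1.99), Gpr27 (1.27), Kctd12 (1.26) and Tgfb1 (1.15). Among matrix genes, the difference was -1.74 for Col2a1, -1.73 for Ltbp2, -1.62 for Optc, -1.51 for Col9a2, -1.44 for Col18a1, -1.35 for Prelp, -1.31 for Fbln1, -1.26 for Fmod, -1.19 for Col9a3 and -1.13 for Col23a1. Among immune and coagulation genes, it was -2.06 for F5, -1.63 for Il33, -1.30 for C4b and -1.10 for Cfi, and the last 2 were elevated over WT in OVE918. For the remaining genes it was -2.04 for Dio3, -1.70 for Cldn1, -1.67 for Crhbp, -1.47 for Fam107a, -1.46 for Bmp4, -1.31 for Slc22a8, -1.25 for Ntrk2 and -1.21 for Wfdc1.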

How the results depend on the processing

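The counts of 286 elevated and 335 reduced DEGs stayed within 1.5 times under DESeq2, other scaling factors, a minimum in 6 libraries, a fit of 7 libraries and voom weights. Which set was larger did not hold throughout. With voom weights 320 were elevated and 280 reduced, and with upper-quartile factors 302 and 315. The counts became 623 and 964 with filterByExpr, 603 and 945 with no filter, where more genes were tested, 104 and 123 when tested against a 2-fold change, and 888 and 1222 without a minimum fold change. Leaving out 1 library gave 247 to 343 elevated and 249 to 386 reduced DEGs, and a Tgfb1 change of 3.77 to 3.94.

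The 54 DEGs between the lines became 107 with DESeq2, 111 with voom weights, 146 without a minimum fold change, 33 with the number in the library names as a term (added after seeing the data) and 0 against a 2-fold change, where 104 and 123 remained against WT, and 6 to 93 without 1 library. The cause was not tested.

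With the replicate number as a block, 250 genes were elevated, 289 reduced and 28 differed between the lines, and Tgfb1 changed by 3.82. Deviations of same-numbered WT and OVE918 libraries correlated at -0.276, 0.0838 and -0.171. Those of differently numbered libraries lay between -0.299 and 0.296, so these values do not settle whether the numbers pair the samples.

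None of the genes whose sign turned was a DEG. Under the block, the log2 change was -0.46 for Hba-a1 and 0.013 for Tnks. With voom weights it was -0.44 for Hba-a1 and -0.072 for Smad7. Without both WT replicate 3 and OVE918 replicate 4 it was -0.56 for Hba-a1 and -0.031 for Smad7. With the library name term it was -0.029 for Samd5, -0.075 for Scai and -0.024 for Kmt2d. Without 1 library the ranges were -0.34 to 0.51 for Hba-a1, -0.0023 to 0.50 for Zbed6, -0.16 to 0.33 for Samd5, -0.41 to 0.0099 for Tnks, -0.094 to 0.29 for Scai, -0.10 to 0.30 for Kmt2d and -0.11 to 0.090 for Smad7. The number of pools limits the precision of all of these.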
